A study of Mus musculus with 4 samples.

Results

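Thin limb of Henle nuclei were picked out of single-nucleus RNA-seq of the mouse kidney medulla by the genes they transcribe. The assay reads the RNA of isolated nuclei in droplets, and each molecule carries a unique molecular identifier (UMI) so that PCR copies are counted once. A nucleus was taken as a member when it had a UMI of at least 3 of 6 genes, *Tshz2*, *Sorcs3*, *Epha7*, *Fst*, *Slc4a11* and *Bst1*. It was also required to have at most 2 UMIs of *Aqp2*, the water channel of collecting duct principal cells, at most 2 UMIs of *Slc12a1*, the sodium cotransporter of the thick ascending limb (TAL), and none of *Pecam1* and *Pdgfrb*, which mark endothelial and mural cells. Of 27343 nuclei, 548 met these limits. The members were thus chosen by measured UMIs of these 10 genes in the same nuclei.

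The nuclei came from 4 male mice of 12 weeks, 1 library per mouse, all homozygous for a floxed *Tfap2a* allele. The 2 control mice (controls) were Cre-negative littermates, and the 2 knockout mice (knockouts) were Hoxb7Cre+;Tfap2a fl/fl. *Hoxb7Cre* is used to recombine in collecting ducts and lower urinary tract epithelia. The loop of Henle comes from other progenitors, so that the thin limb was not the aim of the deletion. Cortex was cut away from each kidney slice before nuclei were isolated, and the amount that remained is not given in the sources used here.

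The loop of Henle is the hairpin of the nephron that reaches down into the medulla, where the countercurrent arrangement of its limbs builds up the salt and urea gradient that lets the kidney concentrate urine. Its descending thin limb passes water through aquaporin-1, and in short loops the urea transporter UT-A2, made from *Slc14a2*, lets urea back in. The ascending thin limb is tight to water and lets salt leave into the interstitium. Thin limb cells live at high tonicity and accumulate organic osmolytes through the factor encoded by *Nfat5* and enzymes such as aldose reductase (*Akr1b3*).

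Depth was comparable between mice for the nuclei themselves. The libraries held 42138345 and 24998797 UMIs in controls 1 and 2, 44964099 and 22179410 UMIs in knockouts 1 and 2, and of their barcodes 7738, 5430, 7998 and 6177 nuclei were kept. Member nuclei had a median of 2459 and 2150 UMIs in controls and 2338 and 2214 UMIs in knockouts, and together they gave 374565, 602805, 187185 and 271144 UMIs. The sum over members was thus smallest for knockout mouse 1, which had the fewest of them. No cell barcode was shared between members of different mice, against 7 to 18 per pair of mice over all nuclei kept. *Tfap2a*, the targeted gene, had 0 UMIs in the members of each of the 4 mice. Outside the members it had 263 and 336 UMIs in controls and 241 and 221 UMIs in knockouts. Libraries were counted from the 3' end of transcripts, so these UMIs do not check the excision of the floxed exons.

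The label was first held against the markers. Members carried exactly 3 of the 6 rule genes in 251 nuclei, 4 in 203, 5 in 93 and all 6 in 1 nucleus. Just outside the limit, 242 nuclei had 2 of the 6 genes and met the exclusions, and 39 nuclei with at least 3 genes were turned away by the exclusions. *Aqp1*, which the rule did not use, stood at 3220 and 1773 CPM (UMIs of the gene per 1000000 UMIs of the sum) in members of controls and 2110 and 2464 CPM in members of knockouts. In the other nuclei of the same mice it stood at 167, 119, 157 and 110 CPM, so that the mean over mice was 17.3-fold higher in members. Proximal tubule nuclei, which also use aquaporin-1, had a mean of 152 CPM and endothelial nuclei 439 CPM.

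The rule genes differed in how far they marked the members. They chose the members, so their levels are a description with no test. *Fst*, which encodes the activin-binding protein follistatin, had a mean of 652 CPM in members and 2.58 CPM outside, a ratio of 253. *Bst1*, an ADP-ribosyl cyclase of the cell surface, had a ratio of 176, and *Sorcs3*, a sorting receptor of the sortilin family, one of 78.0. The membrane transporter gene *Slc4a11* and the ephrin receptor gene *Epha7* followed with ratios of 44.9 and 40.3. The zinc finger factor *Tshz2* was the most abundant of the 6 at a mean of 1988 CPM, but it had the lowest ratio, 33.4. It was not confined to members, since endothelial nuclei had a mean of 720 CPM and podocytes 618 CPM.

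Genes beyond the rule led the members as well. *Tbpl2*, a relative of the TATA-binding protein, had 74.8 and 94.6 CPM in members of controls and 69.4 and 51.6 CPM in those of knockouts, against at most 0.515 CPM in the other nuclei of any mouse. The ratio of its means was 254, the largest of all genes with at least 50 CPM in members of every mouse. The cadherin genes *Cdh6* and *Cdh13* had ratios of 46.3 and 38.3. *Phgdh*, the first enzyme of serine synthesis, had a ratio of 43.1, the homeobox gene *Mkx* one of 41.3 and the cilium gene *Cfap52* one of 41.0. *Ifit3*, known as an interferon-induced gene, had 294 and 272 CPM in control and 283 and 195 CPM in knockout members, a ratio of 37.0 to the other nuclei. The remaining leaders were *Fam78b* and the noncoding *Gm26883*, with ratios of 45.9 and 37.8. Podocytes had a mean of 185 and 179 CPM of them, and endothelial nuclei one of 12.8 and 346 CPM.

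**Figure D1:**
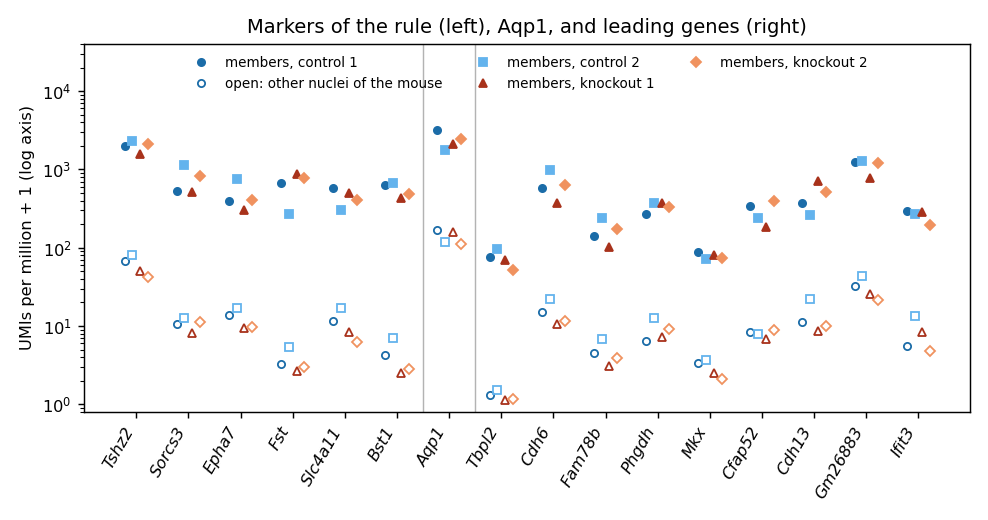
CPM plus 1 (log axis) of the 6 rule genes, of *Aqp1* and of the 9 other leading genes. Filled symbols are the summed members of each mouse, open symbols the other nuclei of the same mouse. Every filled symbol lies above all open symbols of its gene, with *Tbpl2* outside the members at or under 0.515 CPM.

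*Fst* and *Sorcs3* were found in different nuclei. *Fst* was detected in 131 members and *Sorcs3* in 367, yet both were detected together in only 2. By mouse, *Fst* without *Sorcs3* was seen in 42 and 29 members of controls and 28 and 30 members of knockouts. *Sorcs3* without *Fst* was seen in 73 and 196 members of controls and 31 and 65 members of knockouts. *Slc4a11* was detected in 116 of the 131 members with *Fst*. The rule thus joined nuclei of at least a pair of expression patterns, and as it reads the same genes, this is a description.

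Clustering of the members, after each gene was centred within each mouse, gave 4 subgroups of 191, 175, 120 and 62 nuclei. They are called here by number and by their leading genes. Every mouse contributed to each of them.

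Subgroup 1 was the *Aqp1*-high subgroup. *Aqp1* reached 4761 CPM, against 406 CPM in subgroup 2, 2637 CPM in subgroup 3 and 1457 CPM in subgroup 4. Its leading genes were *Nr2e3*, a nuclear receptor, at 139 CPM, *Tbpl2* at 198 CPM and the metal transporter gene *Slc39a8* at 368 CPM. *Tshz2*, *Sorcs3*, *Bst1* and *Epha7* were also highest in this subgroup. It held 46 and 92 members of controls and 18 and 35 members of knockouts.

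Subgroup 2 had little *Aqp1* and very high *Cryab*, the small heat shock protein alpha B-crystallin. *Cryab* stood at 29363 and 19081 CPM in controls and 44287 and 23692 CPM in knockouts. The subgroup average of 24561 CPM compares with 5714 CPM in subgroup 1 and 3037 CPM in subgroup 3. All 6 genes listed for the ascending thin limb were highest here, although *Bsnd*, which encodes the chloride channel subunit barttin, was low at 54.3 CPM. *Krt7* stood at 286 CPM and the claudin gene *Cldn10* at 249 CPM. Aldose reductase *Akr1b3*, which makes the osmolyte sorbitol, stood at 6477 CPM against 183 to 914 CPM in the other subgroups. *Sptssb*, a subunit of the enzyme that starts sphingolipid synthesis, led the subgroup at 803 CPM, with *Clstn2* at 569 CPM.

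Subgroup 3 held the *Fst* pattern. *Fst* stood at 2503 and 2305 CPM in controls and 2290 and 2992 CPM in knockouts, and it was at most 437 CPM in any other subgroup as a whole. *Rbfox1*, a splicing regulator, stood at 4290 CPM, *Cdh13* at 1855 CPM, and *Spp1*, which encodes osteopontin, at 11377 CPM. *Slc9a3*, the sodium-proton exchanger NHE3, stood at 767 CPM against 24.1 to 246 CPM elsewhere in the members. *Sorcs3* was nearly absent at 48.6 CPM. The subgroup made up 27.3% and 13.4% of the members in controls and 35.9% and 26.7% in knockouts.

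Subgroup 4, the smallest, was led by *Corin*, the protease that activates atrial natriuretic peptide, at 424 CPM. *Slc14a2* was at 424 CPM here too, against at most 47.7 CPM in the others. Both values came mostly from controls and from few nuclei. *Corin* stood at 649 and 541 CPM in controls and 72.5 and 0 CPM in knockouts, with a UMI in 11.3% of the subgroup's nuclei. *Slc14a2* stood at 483 and 676 CPM against 24.2 and 0 CPM, with a UMI in 12.9%. *Slit3*, a guidance ligand, stood at 311 CPM, *Cyp7b1*, an oxysterol hydroxylase, at 964 CPM and the growth hormone receptor gene *Ghr* at 3826 CPM. Of the 6 genes listed for the descending thin limb, 4 were highest in this subgroup, with *Adgrl3* on only 2 UMIs. So were all 6 markers of the proximal tubule, with *Slc34a1* at 1202 CPM against 277 to 309 CPM elsewhere. Of its 62 nuclei, 28 had a UMI of at least 3 proximal tubule markers, and its median depth of 3347 UMIs was the highest of the 4. The part of proximal tubule RNA in this subgroup was not tested.

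**Figure D2:**
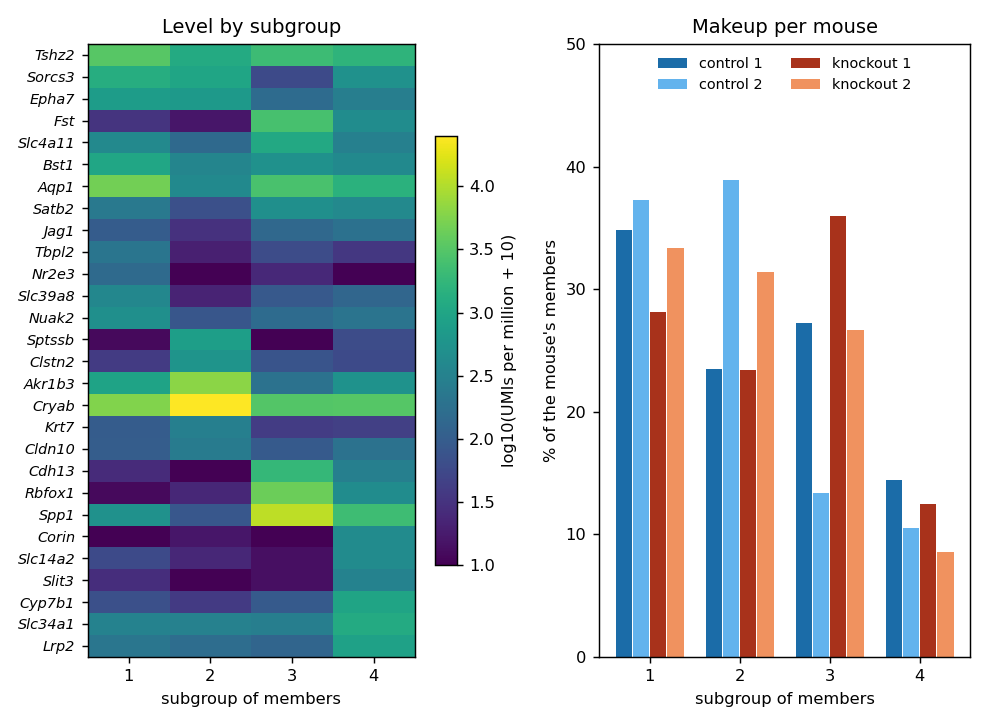
Left, level of rule genes, list genes and leading genes in the 4 subgroups, as log10 of CPM plus 10. Right, percent of each mouse's members in each subgroup. *Fst*, *Cdh13*, *Rbfox1* and *Spp1* are high in subgroup 3, *Cryab* in subgroup 2 and *Corin* and *Slc14a2* in subgroup 4, and subgroup 3 ranges from 13.4% of members in control mouse 2 to 35.9% in knockout mouse 1.

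RNA of the proximal tubule was found among the members and was uneven between mice. At least 3 of 6 proximal tubule markers were found in 36 and 22 members of controls and 18 and 8 members of knockouts, 84 in all. The 6 markers summed to 1359 and 1015 CPM in controls and 2778 and 915 CPM in knockouts. Taken wholly as free RNA, which droplets without a nucleus show at 5541 to 6578 CPM of these markers, this equals 22.2%, 18.3%, 42.2% and 15.02% of the members' UMIs. Knockout mouse 1 stood apart here. TAL markers were found at that number in 16 members, and those of the other 8 classes in 0 to 3. *Pecam1* and *Pdgfrb* were at 0 UMIs because the rule required it. *Col1a2*, an interstitial marker that the rule did not use, was at 0 UMIs in all mice, and so were the podocyte genes *Nphs1* and *Ptpro*. Other markers of both classes were present at low levels. The 6 interstitial markers summed to 18.7 and 14.9 CPM in controls and 16.03 and 3.69 CPM in knockouts. The 6 podocyte markers summed to 13.3 and 21.6 CPM in controls and 16.03 and 22.1 CPM in knockouts.

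The share of thin limb nuclei was lower on average in knockouts and varied widely between controls. Members were 1.71% of nuclei in control mouse 1 (132 of 7738; exact 95% binomial interval 1.43% to 2.02%) and 4.55% in control mouse 2 (247 of 5430; 4.01% to 5.14%). They were 0.800% in knockout mouse 1 (64 of 7998; 0.617% to 1.02%) and 1.70% in knockout mouse 2 (105 of 6177; 1.39% to 2.05%). Control mouse 1 and knockout mouse 2 thus had the same share within counting error. The means were 3.13% ± 2.01 (SD, n = 2) and 1.25% ± 0.636 (SD, n = 2), a difference of -1.88 percentage points. An exact two-sided permutation test over mice gave p = 0.333, the smallest that 2 mice against 2 allow. The intervals cover counting error only.

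The difference rested on control mouse 2, without which it was -0.456 percentage points. When each nucleus was thinned to 1000 UMIs the shares were 1.01% and 2.81% in control against 0.405% and 1.03% in knockouts, so that the groups overlapped (exact permutation test, p = 0.667). Leaving out members with markers of another class also let the groups overlap, at 1.23% and 3.92% against 0.550% and 1.51% (exact permutation test, p = 0.667). Among nuclei outside the proximal tubule the shares were 3.36%, 6.30%, 1.78% and 3.16%, a difference of -2.36 percentage points (exact permutation test, p = 0.333). Proximal tubule nuclei numbered 3806 and 1508 in controls and 4408 and 2849 in knockouts, and how the slices were cut cannot be told apart from genotype in the share of thin limb.

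**Figure D3:**
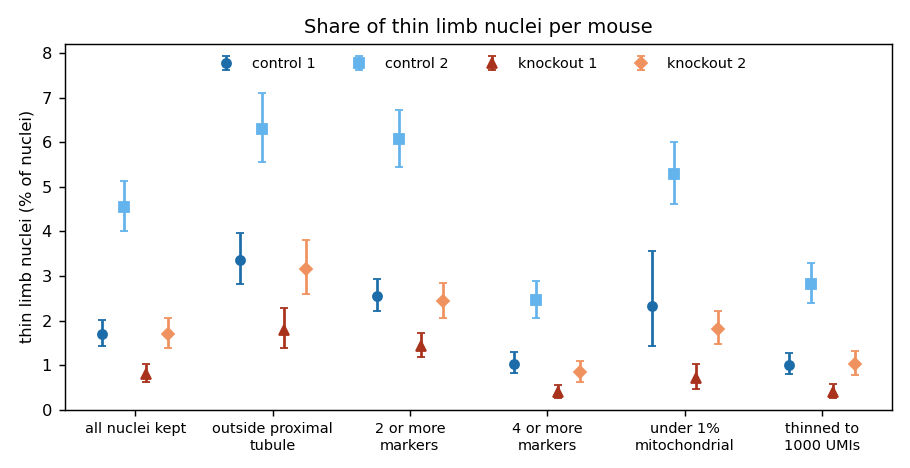
Thin limb nuclei as a percent of nuclei per mouse, with exact 95% binomial intervals, for all nuclei kept and under 5 other choices. Control mouse 2 is highest and knockout mouse 1 lowest in each, while the intervals of control mouse 1 and knockout mouse 2 overlap in each.

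Gene expression was then compared between genotypes on UMIs summed over the members of each mouse. The fit took 11021 genes, those with 10 UMIs or more in total, and 0 were lower and 0 were higher at an adjusted p under 0.05 by the quasi-likelihood test of edgeR, with the adjustment of Benjamini and Hochberg, which is 0% of the genes in each direction. DESeq2 also gave 0. At an unadjusted p under 0.05, 151 genes were lower, 1.37% of those tested, and 160 were higher, 1.45%. DESeq2 gave 28 lower and 24 higher at this limit. In CPM, the pair of knockouts lay under the pair of controls for 14.7% of genes and above them for 15.5%. The genes described next did not pass the test and are given as values. In a sum over nuclei, fewer nuclei of one pattern and less RNA per nucleus cannot be told apart.

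*Slc14a2* had the lowest p of all genes. It had 36 and 87 UMIs in members of controls, 96.1 and 144 CPM, and 1 and 3 UMIs in knockouts, 5.34 and 11.1 CPM. The groups did not overlap, and the log2 fold change was -3.78 (standard error 0.56, adjusted p = 0.193, edgeR, with a range of 1.2e-08 to 1.00 over the alternatives). In edgeR the adjusted p was 0.00141 without knockout mouse 1, 0.00617 without knockout mouse 2, 1.2e-06 without a filter on low counts and 1.2e-08 with the replicate number as a block, so that the call turned on these choices. The pooled level in knockout members was 0.0693 of that in control members, with a counting interval of 0.0186 to 0.182. That interval takes each UMI as independent and leaves out the spread between nuclei and between mice. The UMIs of *Slc14a2* in members lay in few nuclei. In control mouse 1, 6 members held them, and 32 of the 36 UMIs came from 2 nuclei. In control mouse 2, 17 members held them, and 66 of the 87 UMIs came from 5 nuclei. Most UMIs of the gene lay outside the members, and they were fewer in knockouts there too. The other nuclei held 791 and 779 UMIs in controls and 420 and 388 UMIs in knockouts.

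*Corin* behaved alike. It had 44 and 53 UMIs in controls and 4 and 0 UMIs in knockouts, a log2 fold change of -3.48 (adjusted p = 0.819, edgeR, 8e-07 to 1.00 over the alternatives). It passed the threshold in edgeR without knockout mouse 1, where knockout mouse 2 was at 0 (adjusted p = 9.8e-06), without a filter on low counts (2.4e-05) and with the replicate block (8e-07). All but 2 of the 97 control UMIs lay in subgroup 4, in 3 members of control mouse 1 and 5 of control mouse 2 over all subgroups. Subgroup 4 itself held 19 and 26 members of controls and 8 and 9 members of knockouts. As a share of each mouse's members this was 14.4% and 10.5% against 12.5% and 8.57%, so that the groups overlapped. Without subgroup 4, an alternative chosen after the data were seen, the log2 fold change of *Slc14a2* was -1.98 and *Corin* was too low to test.

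Nuclei with both genes, which were looked up after these values were seen, mostly lay outside the members. Over all nuclei, 8 and 16 nuclei of controls and 4 and 3 nuclei of knockouts had a UMI of both *Corin* and *Slc14a2*. These are 0.103% and 0.295% of nuclei in controls and 0.05001% and 0.0486% in knockouts. Of the 31 nuclei only 5 were members, while 12 had 2 of the rule genes, 11 had 1 and 3 had none. Within these 31 nuclei *Slc14a2* stood at 2230 and 3581 CPM in controls and 1754 and 786 CPM in knockouts. The nuclei were chosen by a UMI of that gene, so these levels are a description. Those of knockouts rest on 24 and 6 UMIs. The rule therefore reached few of the nuclei that carry this pair of genes.

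*Angpt2* and *Nuak2*, by contrast, were spread over many members. *Angpt2*, which encodes the vascular ligand angiopoietin-2, had 395 and 531 CPM in controls and 139 and 173 CPM in knockouts. It was detected in 67 and 128 members of controls and 21 and 35 of knockouts, and the log2 fold change was -1.59 (standard error 0.35, adjusted p = 0.997, edgeR, 8e-07 to 1.00 over the alternatives). In subgroup 1 it had 460 and 891 CPM against 139 and 415 CPM, and in subgroup 3 it had 535 and 672 CPM against 248 and 122 CPM. Subgroups 2 and 4 had both knockouts below both controls as well, with 8 or fewer UMIs in each knockout mouse. The change was -0.38 in TAL, -0.29 in proximal tubule and -0.85 in endothelial nuclei of the same mice.

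*Nuak2*, a kinase related to AMP-activated kinase, had 219 and 352 CPM in controls and 64.1 and 88.5 CPM in knockouts, that is -1.91 on the log2 scale (standard error 0.39, adjusted p = 0.819, edgeR, 4.5e-07 to 1.00 over the alternatives). Most of it came from subgroup 1, with 477 and 709 CPM against 159 and 107 CPM. *Nuak2* was -0.82 in TAL, -0.23 in proximal tubule and 0.52 in endothelial nuclei on the log2 scale. The tests of the difference between thin limb and these classes, which 0.0183%, 0% and 0% of all genes passed, gave adjusted p-values of 0.709, 0.782 and 0.78 by edgeR.

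*Mcph1*, which encodes the chromosome condensation factor microcephalin, had 131 and 182 CPM in controls and 32.1 and 47.9 CPM in knockouts, a log2 fold change of -1.96 (adjusted p = 0.819, edgeR, 8.8e-05 to 1.00 over the alternatives). *Angpt2*, *Nuak2* and *Mcph1* passed the threshold of edgeR under 2 alternatives each, without a filter on low counts and with the replicate block. *Mcph1* and *Angpt2* overlap in the genome. In the RefSeq annotation of GRCm38.p6, which is mm10, *Mcph1* spans positions 18595116 to 18808089 of chromosome 8, and *Angpt2*, from 18690263 to 18741562, lies inside it. Of 130 members with *Mcph1*, 95 also had *Angpt2*, and 35 had it alone. Reads from one gene that were assigned to the other were not tested for, so both are uncertain as separate results.

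**Figure D4:**
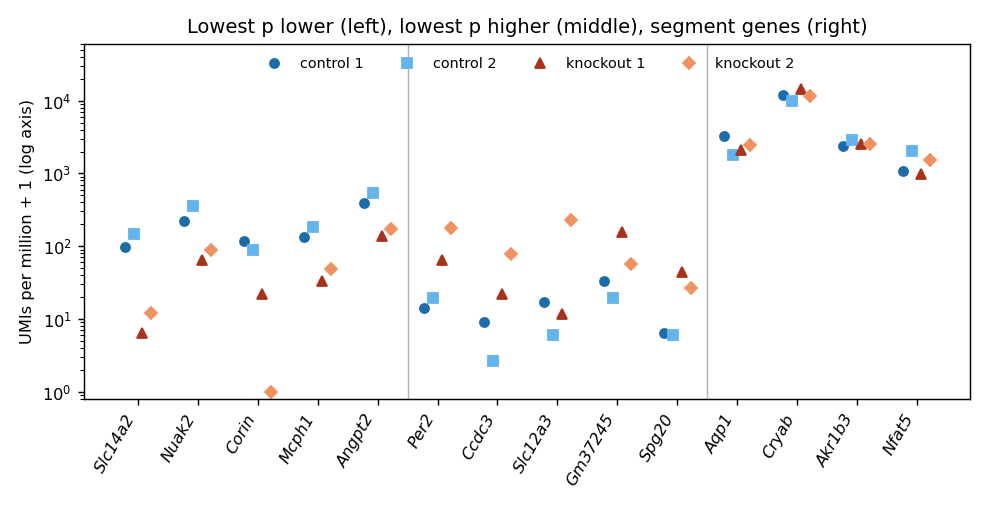
CPM plus 1 (log axis) in the summed members of each mouse for the 5 genes with the lowest p among lower genes, the 5 among higher genes, and 4 segment genes. The 2 knockouts lie below both controls for each of the left 5 genes. *Slc12a3* in the middle group is high in knockout mouse 2 only, at 229 CPM.

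Among genes higher in knockout members, *Per2* had the lowest p. This repressor of the circadian clock had 5 and 11 UMIs in controls and 12 and 48 UMIs in knockouts, 13.3 and 18.2 CPM against 64.1 and 177 CPM. The log2 fold change was 2.89 (standard error 0.52, adjusted p = 0.656, edgeR, 9.5e-08 to 1.00 over the alternatives, the lowest without knockout mouse 1). It was detected in 4 and 10 members of controls and in 10 and 36 members of knockouts. *Per2* also had the lowest p in subgroup 3, the only subgroup with at least 20 nuclei in every mouse. There 0 of 5684 genes had an adjusted p under 0.05 by edgeR, and 96 lower and 60 higher genes an unadjusted one, 1.69% and 1.06%.

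The other 4 genes with the lowest p were *Ccdc3*, *Slc12a3*, *Gm37245* and *Spg20*. *Ccdc3* had 3 and 1 UMIs in controls and 4 and 21 in knockouts, with 16 of the 21 in 2 nuclei. *Slc12a3*, the sodium chloride cotransporter of the distal convoluted tubule, had 6 and 3 UMIs in controls and 2 and 62 in knockouts. Of those 62 UMIs, 58 came from 2 nuclei of knockout mouse 2, and the gene is a marker of another segment. *Gm37245* had 12 and 11 against 29 and 15 UMIs, where the other nuclei of the same mice held 3421 and 1289 against 5814 and 6210. *Spg20*, which encodes spartin, had 2 and 3 UMIs against 8 and 7.

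The clock genes stood out among the lists by their counts. Of 19 genes, 16 were tested, and 2 were lower and 8 higher in knockout members at an unadjusted p under 0.05, where 1.37% and 1.45% of all genes were. The groups did not overlap for 2 lower and 10 higher genes, where 14.7% and 15.5% of all genes did not. The median log2 fold change was 1.06, against -0.01 over all genes tested. *Arntl* and *Npas2*, activators of the clock, were the lower genes. *Arntl* had 34.7 and 51.4 CPM in controls against 10.7 and 3.69 CPM in knockouts, and *Npas2* had 58.7 and 109 CPM against 37.4 and 11.1 CPM. Knockout mouse 2 was the lower of the pair for both.

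The higher clock genes included *Per1*, *Per2*, *Cry2*, *Nr1d2*, *Dbp*, *Tef* and *Bhlhe41*, which are repressors and output genes of the clock. *Dbp* had 24.0 and 19.9 CPM against 32.1 and 136 CPM, a log2 fold change of 1.99, and *Tef* had 69.4 and 44.8 CPM against 96.2 and 177 CPM, a log2 fold change of 1.29. Knockout mouse 2 was far above knockout mouse 1 for most of them. *Nr1d2* was more even, at 90.8 and 69.7 CPM against 139 and 148 CPM. *Clock* itself had a log2 fold change of -0.19.

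In the other classes of the same 4 mice *Per2*, *Arntl* and *Dbp* had fold changes of the same sign, and those of proximal tubule nuclei were nearest to 0. *Per2* had a log2 fold change of 2.79 in TAL, 1.45 in proximal tubule and 3.01 in endothelial nuclei, beside 2.89 in thin limb. *Arntl* had -1.87, -0.89 and -1.51, beside -2.70. *Dbp* had 1.71, 0.72 and 2.52, beside 1.99. In endothelial nuclei *Per2* had 1.68 and 4.78 CPM in controls against 2.35 and 52.9 CPM in knockouts, so that knockout mouse 2 alone was high. *Dbp* had 13.4 and 4.78 CPM there against 18.8 and 100 CPM, but 19.5 and 15.8 CPM in TAL against 57.8 and 56.1 CPM. The median over the clock genes tested was 0.90 in TAL, 0.42 in proximal tubule and 0.91 in endothelial nuclei, beside 1.06 in thin limb. With an unadjusted p under 0.05 there were 7 higher clock genes of 18 in TAL, 4 of 18 in proximal tubule and 5 of 14 in endothelial nuclei, and 2 lower in each, while 1.34%, 1.1% and 1.56% of all genes were higher and 1.85%, 2.1% and 1.84% lower. No clock gene had an adjusted p under 0.05, where 0.00671%, 0.00569% and 0.0175% of all genes did. The classes share the same mice and are not independent. The hour at which each mouse was killed is not given in the sources used here, and it cannot be told apart from genotype.

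**Figure D5:**
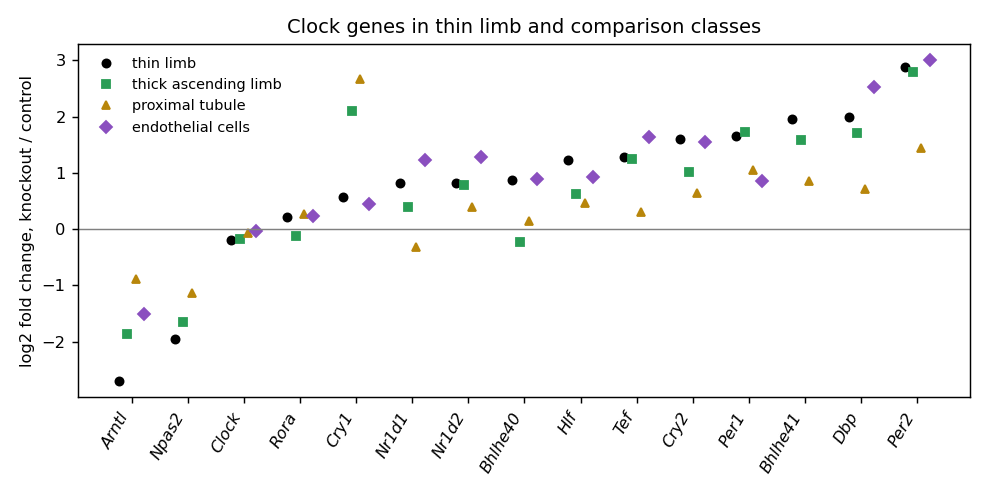
Log2 fold change, knockout over control, of 15 of the 16 clock genes tested in thin limb, in thin limb, TAL, proximal tubule and endothelial nuclei, ordered by the thin limb value. *Arntl* and *Npas2* lie below 0 and *Per2* at or above 1.45 in every class where they were tested, and *Clock* lies near 0.

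Of 12 genes listed for the glucocorticoid response, the receptor gene *Nr3c1* among them, 11 were tested. At an unadjusted p under 0.05, 4 were higher and 0 lower, where 1.45% and 1.37% of all genes were. None had an adjusted p under 0.05 by edgeR. *Zbtb16* had 117 and 48.1 CPM in controls against 176 and 284 CPM in knockouts. *Fkbp5* had 45.4 and 18.2 CPM against 96.2 and 92.2 CPM, and *Tsc22d3* had 77.4 and 31.5 CPM against 102 and 170 CPM. The fourth was *Per1*, which is also on the clock list. Groups did not overlap for these 4, nor for 1 more of the list, where 15.5% of all genes had both knockouts above. Control mouse 2 was lowest for *Zbtb16*, *Fkbp5* and *Tsc22d3*. The receptor gene *Nr3c1* had a log2 fold change of -0.08.

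Transport and osmolyte genes, which define what the thin limb does, gave 1 gene with a low p. In the tonicity list, 13 of 17 genes were tested, and *Slc14a2* was the only one with an unadjusted p under 0.05. *Nfat5* had 1068 and 2030 CPM in controls and 988 and 1512 CPM in knockouts. *Akr1b3* had 2360 and 2887 CPM against 2532 and 2567 CPM. The taurine transporter gene *Slc6a6* had 1023 and 831 CPM against 849 and 1151 CPM, and *Slc5a3*, the inositol transporter, had 0 UMIs in all mice. *Aqp1* had a log2 fold change of -0.14 (standard error 0.42), within the spread of controls. In the list of ion and water transport 18 of 21 genes were tested, with 1 lower, again *Slc14a2*, and 0 higher. For both lists the share over all genes was 1.37% lower and 1.45% higher.

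Of the 6 genes listed for the descending thin limb, 5 were tested, all with a fold change below 0 and a median of -0.77 on the log2 scale. *Slc14a2* and *Corin* had an unadjusted p under 0.05, where 1.37% of all genes were lower and 1.45% higher. Both knockouts lay below both controls for 3 of the 5, where 14.7% of all genes did so. *Jag1* had 120 and 86.3 CPM in controls and 85.5 and 40.6 CPM in knockouts. All 6 ascending genes were tested and had a fold change above 0, with a median of 0.78 on the log2 scale. Both knockouts lay above both controls for 2, *Krt7* and *Cldn10*, where 15.5% of all genes did so. *Prox1* alone had an unadjusted p under 0.05, at 2.67 and 18.2 CPM against 5.34 and 103 CPM. Without knockout mouse 2 its log2 fold change of 2.27 turned to -1.11. *Cryab* had 11784 and 9998 CPM in controls and 14371 and 11581 CPM in knockouts.

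Adhesion and signalling lists gave few low p-values. No claudin or other tight junction gene of 12 tested, no Eph receptor or ephrin of 9, no activin or BMP gene of 17 and no sortilin family gene of 4 had an unadjusted p under 0.05. Of 20 Wnt genes tested, 1 was lower at this limit, where 1.37% of all genes were lower and 1.45% higher. It was *Fzd6*, a Wnt receptor, at 61.4 and 51.4 CPM against 21.4 and 33.2 CPM. *Wnt9b* had 0 UMIs. The Eph, activin and sortilin lists each hold 1 of the rule genes. So do the lists of ion and water transport, with *Slc4a11*, and of transcription factors, with *Tshz2*. *Fst* had 670 and 270 CPM in controls and 881 and 786 CPM in knockouts, given with no test because the rule used it, and *Cdh13*, which marks the same subgroup, had 371 and 264 CPM against 711 and 509 CPM (log2 fold change 0.92, standard error 0.35). Control mouse 2, lowest in both, was also the mouse with the smallest share of subgroup 3.

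Among 25 transcription factors tested, 1 was lower and 2 were higher at an unadjusted p under 0.05, where 1.37% and 1.45% of all genes were. The higher ones were *Prox1* and *Lhx1*, the latter with at most 4 UMIs in any mouse. *Pax8*, with a log2 fold change of 0.05, and *Pax2*, with one of -0.77 (standard error 0.37), were not among the 3. *Tfap2b*, the other AP-2 gene of the kidney, had 0 and 10 UMIs in controls and 1 and 18 in knockouts.

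Stress and injury genes gave no low p. Of 12 immediate early and stress genes and 6 injury genes tested, 0 had an unadjusted p under 0.05. At that limit 1.37% of all genes were lower and 1.45% higher. *Spp1*, counted among the injury genes and also a gene of subgroup 3, had 4042 and 997 CPM in controls and 5054 and 2744 CPM in knockouts. *Slc5a12*, a lactate transporter of the proximal tubule, was the one marker of that segment with a low p. It had 98.8 and 51.4 CPM in controls against 283 and 144 CPM in knockouts (log2 fold change 1.497). In each mouse 2 nuclei held most of its UMIs, 25 of 37 and 18 of 31 in controls, 32 of 53 and 34 of 39 in knockouts. Its adjusted p in edgeR was under 0.05 only under alternatives, among them at least 4 rule genes (0.0327).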

How the data were processed

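Single-nucleus 10x 3' libraries of 4 mice were used. The authors counted UMIs with Cell Ranger 3.0.2 on mm10 and used Seurat 3.2.1.35 afterwards, per the labels; the deposited matrices hold raw counts for 31053 genes in every barcode, without normalization. Nuclei were the barcodes among the deepest 10000 of a library that had more than 500 but fewer than 4000 genes detected and less than 5% of UMIs from mitochondrial genes. The members, the gene lists and the tests were chosen with earlier results of these data known.

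UMIs of members were summed per mouse, since nuclei of 1 mouse are not independent. Genes with at least 10 UMIs were tested on genotype with edgeR 4.0.16 (TMM, quasi-likelihood test, Benjamini-Hochberg adjustment; R 4.3.3), and checked on simulated data. Labels do not say how libraries were batched, so p-values measure the spread between 2 mice per genotype. Comparison classes were nuclei outside the members with a UMI of at least 3 of 6 markers of 1 class only, and differences between classes were tested as an interaction with the mouse as a term. Subgroups came from 1000 variable genes, 15 components, 15 neighbours and Leiden clustering at a resolution of 0.5. Barcodes with fewer than 100 UMIs gave the free RNA. No doublet caller was run; instead members with markers of another class were left out in an alternative. The named genes are the rule genes, *Aqp1*, *Tfap2a*, *Tfap2b*, the 15 leading genes with at least 50 CPM, the 5 genes of lowest p per direction and listed genes; subgroup leaders, *Psca* and *Chn2* were named after their values were seen. A few listed genes enter the counts but are not reported here by name. Coordinates are from RefSeq, matched by symbol for 298 of 300 named genes. No sequence was printed, as no result turned on one. Alternatives were no TMM, DESeq2 1.42.0, filterByExpr, no filter, the replicate number as a block, 2 or 4 rule genes, under 1% mitochondrial UMIs, free RNA subtracted, thinning and each mouse left out.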

Additional observations from a re-analysis of the deposited data

Results flagged for a closer look

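The effect of genotype differed between thin limb and TAL for 2 of 10927 genes, 0.0183% of those tested, as a test of the difference itself with the mouse as a term (quasi-likelihood test of edgeR, adjusted after Benjamini and Hochberg). For *Psca*, a gene of pelvic epithelium, the difference of the log2 fold changes was 3.37 (adjusted p = 0.00966). It had 58.7 and 101 CPM in thin limb of controls and 16.03 and 365 CPM in knockouts, so that knockout mouse 2 alone was high, with 52 of its 99 UMIs in 2 nuclei. In TAL it had 26.3 and 74.0 CPM against 5.45 and 16.3 CPM. Without knockout mouse 2 the difference was 0.90 (adjusted p = 0.906 by the same edgeR test).

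For *Chn2*, which encodes the Rac-regulating protein beta-chimaerin, the difference was 1.76 (adjusted p = 0.0323). It had 675 and 951 CPM in thin limb of controls and 855 and 1221 CPM in knockouts, where the groups overlapped. In TAL it had 49.3 and 97.7 CPM against 21.3 and 31.9 CPM. Without control mouse 2 its adjusted p by edgeR was 0.096. Against proximal tubule and endothelial nuclei 0 of 10978 and 0 of 10041 genes differed.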

How the results depend on the processing

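Counts of called genes moved with the model more than with the choice of nuclei. Against 0 lower and 0 higher genes, 8 and 8 were called without a filter on low counts. The replicate number does not tie mice by the labels, and the deviations of mice with the same number had r = 0.585 over 1486 genes; with the replicate block 30 lower and 26 higher genes were called. With at least 4 rule genes 0 and 2 were called, and over the mice left out in turn 0 to 5 lower and 0 to 16 higher, the most without knockout mouse 2. The other alternatives called 0, with filterByExpr testing 6864 genes. Calls of the difference from TAL were 18 without a filter and 5 to 11 with a mouse left out, against 2; from proximal tubule 12 and 0 to 43, against 0; from endothelial nuclei 2 without TMM, 10 without a filter and 2 to 11, against 0. The difference in share kept its sign under all alternatives, from -3.30 to -0.456 percentage points.

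Signs turned for *Slc12a3* with 2 or 4 rule genes (-0.037 and -0.064), *Prox1* without knockout mouse 2 (-1.11, and up to 4.25 with another mouse left out), *Calb1* with 2 (-0.67), *Krt19* with 4 (-0.064) and *Psca* without knockout mouse 2 (-2.34, and up to 2.12). Without control mouse 2, *Nfat5* was 0.22 and *Akr1b3* 0.11, at the other end -0.73 and -0.21 without control mouse 1; *Akr1b3* was also 0.16 with 2 rule genes and 0.035 with free RNA subtracted. *Aqp1* was 0.34 without control mouse 1 and -0.50 without control mouse 2, and *Cryab* -0.17 with 4 rule genes. The causes were not tested. Of 521 values for single genes other than the rule genes, 463 kept sign and side of the threshold and 46 passed it.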
